A study of Sus scrofa with 15 samples.

Results

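Lubricin and the genes that accompany it at the joint surface were followed across sorted adult pig cells. The members were PRG4, which encodes lubricin, ABI3BP, VCAM1, CLU and HTRA1, taken by gene symbol. They were chosen with earlier results of these data known, so counts of members beside shares of all genes are a description. The members filled 6 of the 25322 gene rows, because ABI3BP had 2 rows. Row ENSSSCG00000021687 carried the symbol in the deposited table, and row ENSSSCG00000011959 carried none there and was given it by a reference list of gene identifiers. These may be 2 models of 1 gene between which reads could be split, so the level of either ABI3BP row is uncertain. No sequence or map position of a member is shown, since no reference of the build the libraries were aligned to was used.

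Lubricin is a large, mucin-like glycoprotein that coats articular cartilage and lowers friction where cartilage meets cartilage, and in the joint it is made by chondrocytes of the superficial zone and by lining cells of the synovium. Below the surface, chondrocytes lay down a matrix of type II collagen and aggrecan instead. ABI3BP is a secreted matrix protein, clusterin (CLU) is an extracellular chaperone that also inhibits complement, and HTRA1 is a secreted serine protease that cuts matrix proteins. VCAM1 is an adhesion molecule bound by integrins that contain ITGA4, the α4 chain that was itself used here to sort the cells.

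Knee cartilage of adult pigs 2, 5 and 6 was dissociated and sorted by flow cytometry for ITGA4 and BMPR1B. The sort gave double-positive (ITGA4+BMPR1B+), ITGA4 single-positive (ITGA4+BMPR1B-), BMPR1B single-positive (ITGA4-BMPR1B+) and double-negative (ITGA4-BMPR1B-) chondrocytes, with 1 library of each population per pig (n = 3 each, 12 libraries). BMPR1B is a receptor for bone morphogenetic proteins. Synovial cells of adult pigs 3, 4 and 5 that were negative for CD45 and CD31 and positive for CD146 gave 3 further libraries, which the study sorted as pericytes. No cell was treated or modified, and only pig 5 gave both cartilage and synovium.

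The deposited signal summed to the same total, 629194 or 629195, in each of the 15 libraries, and most of it was structural RNA (43.9% to 96.2%). Messenger RNA made up 2.03% to 22.1%, and the 4 chondrocyte libraries of pig 2 lay at the low end with 2.03% to 4.17%, as did the CD146+ libraries with 2.96% to 3.79%. Levels are therefore given as messenger-scaled signal, in which structural and mitochondrial RNA were set aside, libraries were brought to a common scale by median ratios and the mean library total is 1000000. Whether signal was adjusted for transcript length is not known, so levels are compared between libraries and never between genes. The number of reads behind a single value cannot be had from this signal, and the read totals the study gives per library were not used here. Differences are log2 differences of messenger-scaled signal + 1, and p-values are from limma and adjusted over all 9958 genes tested. In bulk libraries, fewer cells of a kind and less RNA per cell cannot be told apart. Chondrocyte markers summed to 16767 to 89951 in chondrocyte libraries, against 35.9 to 53.2 in CD146+ cells, and MCAM, which encodes CD146, had 0.614 to 9.90 in chondrocytes, against 265 to 730 in CD146+ cells. The 9 endothelial markers of the table summed to 4.20 to 106 in chondrocytes, against 2839 to 4896 in CD146+ cells. Among them PECAM1, the gene of the CD31 protein, had 0.796 to 13.8 in chondrocytes, against 343 to 621 in CD146+ cells. CLDN5 alone had 1820 to 3414 in CD146+ cells, and VWF overlapped (2.24 to 2.86, against 1.53 to 2.64 in chondrocytes). The 10 pericyte markers summed to 469 to 886 in CD146+ cells and to 489 to 1615 in chondrocytes. Of these, CSPG4 was lower in CD146+ cells (0.425 to 7.06, against 314 to 1466) and RGS5 mostly higher (6.44 to 61.5, against 0.599 to 6.85). The sort of the chondrocytes could not be checked in RNA, since ITGA4 reached at most 1.40 and BMPR1B at most 0.153 in any library.

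PRG4 was highest in the populations without BMPR1B. In ITGA4+BMPR1B+ cells PRG4 had 1264, 217 and 755 messenger-scaled signal in pigs 2, 5 and 6. ITGA4+BMPR1B- cells of the same pigs had 5256, 3396 and 3292. In ITGA4-BMPR1B+ cells the values were 1186, 22.4 and 81.9, and in ITGA4-BMPR1B- cells 4430, 1863 and 2084. The 6 BMPR1B+ libraries did not overlap the 6 BMPR1B- libraries, and pig 2 was the highest pig in each population. CD146+ synovial cells of pigs 3, 4 and 5 had 50.6, 91.3 and 390, which lay within the range of the ITGA4-BMPR1B+ libraries. By mean and SD (n = 3) the order was ITGA4+BMPR1B- with 3981 ± 1105, ITGA4-BMPR1B- with 2792 ± 1422, ITGA4+BMPR1B+ with 745 ± 524, ITGA4-BMPR1B+ with 430 ± 655 and CD146+ with 177 ± 186. No neighbours in this order were called different, with or without the pig as a term. The log2 difference was 0.59 (95% interval -2.05 to 3.23) for ITGA4+BMPR1B- minus ITGA4-BMPR1B-, -2.12 (-4.76 to 0.51) for ITGA4+BMPR1B+ minus ITGA4-BMPR1B-, 2.17 (-0.47 to 4.80) for ITGA4+BMPR1B+ minus ITGA4-BMPR1B+ and 0.10 (-2.47 to 2.67) for ITGA4-BMPR1B+ minus CD146+. Between populations of the same pigs the paired intervals were narrower. They were -4.03 to -0.22 for ITGA4+BMPR1B+ minus ITGA4-BMPR1B- cells (limma adjusted p = 0.325) and 0.26 to 4.07 for ITGA4+BMPR1B+ minus ITGA4-BMPR1B+ cells (0.629). The libraries of the first of these pairs did not overlap in messenger-scaled signal, a separation whose share over all genes was not counted. The intervals are not adjusted for the number of genes, so neither a difference nor a likeness of these neighbours can be stated.

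**Figure D1:**
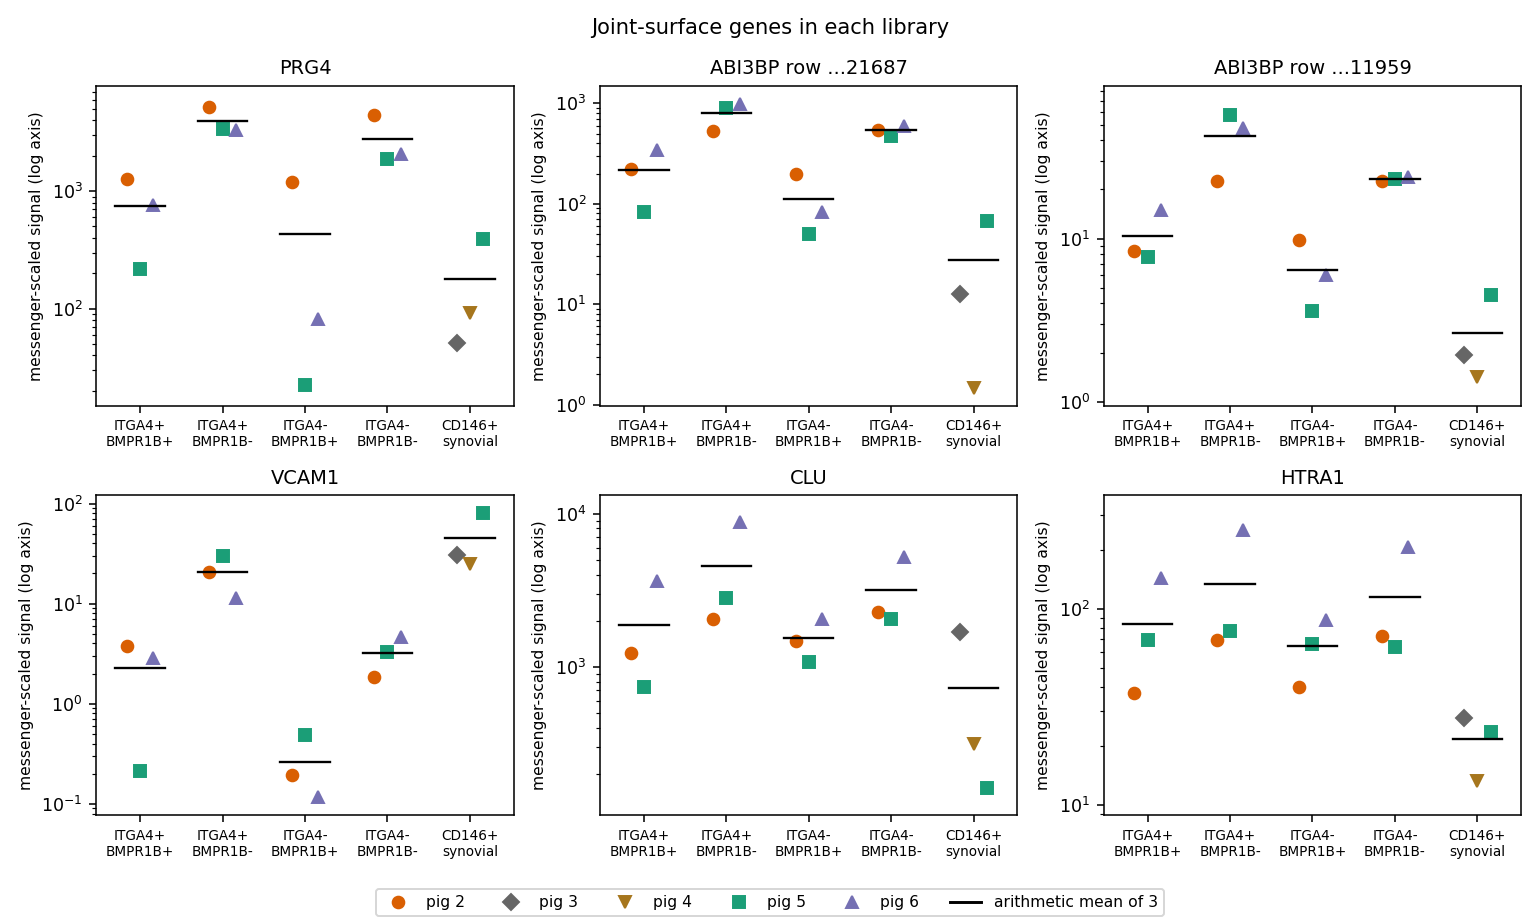
Messenger-scaled signal (log axis) of the 6 rows in the 15 libraries, grouped by sorted population along the horizontal axis. Each point is 1 library, its shape and colour give the pig, and the bar is the arithmetic mean of 3. PRG4 and both ABI3BP rows lie lower in every BMPR1B+ library than in any BMPR1B- library of chondrocytes, and VCAM1 is highest in ITGA4+BMPR1B- and CD146+ cells.

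Both rows of ABI3BP had the same order as PRG4. Row ENSSSCG00000021687 had 220, 82.0 and 344 in ITGA4+BMPR1B+ cells and 529, 898 and 996 in ITGA4+BMPR1B- cells of pigs 2, 5 and 6. It had 200, 50.2 and 83.1 in ITGA4-BMPR1B+ cells and 544, 477 and 591 in ITGA4-BMPR1B- cells. CD146+ cells of pigs 3, 4 and 5 had 12.7, 1.47 and 68.1, so that only their pig 5 library reached the lowest chondrocyte libraries. Row ENSSSCG00000011959 had 8.41, 7.66 and 15.1 in ITGA4+BMPR1B+ cells and 22.7, 57.6 and 47.6 in ITGA4+BMPR1B- cells. It had 9.74, 3.62 and 6.00 in ITGA4-BMPR1B+ cells, 22.4, 23.2 and 23.9 in ITGA4-BMPR1B- cells and 1.93, 1.42 and 4.51 in CD146+ cells. For both rows the BMPR1B+ chondrocyte libraries again did not overlap the BMPR1B- libraries in messenger-scaled signal. In deposited signal they did. ITGA4+BMPR1B+ cells of pig 6 then had 38.3 and 1.68 in rows ENSSSCG00000021687 and ENSSSCG00000011959, against 6.47 and 0.266 in ITGA4-BMPR1B- cells of pig 2. ITGA4+BMPR1B- and ITGA4-BMPR1B- cells, the top neighbours, were not called different. The log2 difference of ITGA4+BMPR1B- minus ITGA4-BMPR1B- cells was 0.54 (95% interval -0.72 to 1.80) and 0.75 (-0.13 to 1.63) in the 2 rows. Pig 2, where PRG4 was highest, was not the highest pig for ABI3BP in ITGA4+BMPR1B- cells.

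By mean messenger-scaled signal, VCAM1 was the member with its highest level outside cartilage (45.2 in CD146+ cells, against 20.8 in ITGA4+BMPR1B- cells). Libraries of these 2 populations overlapped, and in deposited signal the ITGA4+BMPR1B- mean was the higher (1.96, against 1.29). Among chondrocytes, ITGA4+BMPR1B- cells stood above the rest, with a messenger-scaled signal of 20.9, 30.2 and 11.3 in pigs 2, 5 and 6. ITGA4+BMPR1B+ cells had 3.81, 0.213 and 2.83, ITGA4-BMPR1B- cells 1.84, 3.27 and 4.62, and ITGA4-BMPR1B+ cells 0.192, 0.482 and 0.116. CD146+ cells of pigs 3, 4 and 5 had 30.4, 24.8 and 80.4. The lowest ITGA4+BMPR1B- library was thus above each of the 9 other chondrocyte libraries, a separation whose share over all genes was not counted. A gene was tested if its signal was above 5 in 3 or more of the 15 libraries. VCAM1 passed this limit in 6, these 3 and the 3 CD146+ libraries, so it was tested among chondrocytes although 9 of their 12 libraries lay under it. Macrophage markers moved with it in part. The 8 macrophage markers of the table summed to 302, 51.4 and 5.33 in ITGA4+BMPR1B- cells of pigs 2, 5 and 6, against 0.00926 to 8.18 in the other chondrocyte libraries, with CD68 at 106, 33.1 and 4.09 and with CD163 and MARCO under 1 in each ITGA4+BMPR1B- library. The endothelial sum was 106, 12.4 and 28.0 in those cells, with TEK under 1, and overlapped the other chondrocyte libraries (4.20 to 48.7). It was 48.7 in ITGA4+BMPR1B+ cells of pig 2 and 41.3 in ITGA4-BMPR1B- cells of pig 6. The part of such cells in the VCAM1 level was not tested.

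CLU and HTRA1 varied more between pigs than between populations. CLU had 1236, 739 and 3630 in ITGA4+BMPR1B+ cells of pigs 2, 5 and 6 and 2041, 2795 and 8778 in ITGA4+BMPR1B- cells. It had 1478, 1073 and 2059 in ITGA4-BMPR1B+ cells, 2271, 2061 and 5234 in ITGA4-BMPR1B- cells and 1691, 311 and 161 in CD146+ cells. HTRA1 had 37.3, 68.9 and 143 in ITGA4+BMPR1B+ cells and 69.5, 76.9 and 253 in ITGA4+BMPR1B- cells. It had 39.9, 66.2 and 87.8 in ITGA4-BMPR1B+ cells, 72.8, 63.9 and 207 in ITGA4-BMPR1B- cells and 27.8, 13.3 and 23.5 in CD146+ cells. Pig 6 was highest for both genes in each chondrocyte population. In messenger-scaled signal HTRA1 was the member whose chondrocyte libraries all lay above the CD146+ libraries, and CLU overlapped them through the CD146+ library of pig 3. Of the sum of squares over the 12 chondrocyte libraries, pigs took 52.6% for CLU and 72.2% for HTRA1, and populations 37.6% and 17.9%. For PRG4 the pigs took 19.8% and the populations 67.5%, and for the ABI3BP rows and VCAM1 the populations took 78.7%, 84.3% and 87.2%.

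The first comparison asked whether BMPR1B+ chondrocytes differ from BMPR1B- chondrocytes in these genes, as the mean of the 2 BMPR1B+ populations minus the mean of the 2 BMPR1B- populations. Fitted levels were lower in BMPR1B+ cells for each of the 6 rows, the most for PRG4 with a log2 difference of -3.50 (SE 0.84, n = 6 against 6 libraries). The difference was -2.28 (SE 0.40) and -1.84 (SE 0.28) for ABI3BP rows ENSSSCG00000021687 and ENSSSCG00000011959, -2.28 (SE 0.37) for VCAM1, -1.14 (SE 0.48) for CLU and -0.65 (SE 0.46) for HTRA1. Without the pig in the fit, 2 of 6 rows passed the threshold, where 0.211% of all genes did (21 of 9958). These were ABI3BP row ENSSSCG00000011959 (adjusted p = 0.0470) and VCAM1 (adjusted p = 0.0493), both just inside it. VCAM1 passed the signal limit only in ITGA4+BMPR1B- and CD146+ libraries. Its calls in this comparison, with or without the pig, are therefore no support of their own. Row ENSSSCG00000021687 (adjusted p = 0.0577), PRG4 (0.166), CLU (0.476) and HTRA1 (0.700) did not pass.

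With the pig as a term, which is the paired fit of populations sorted from the same animals, 5 of 6 rows fell in BMPR1B+ cells, where 2.68% of genes were called (267) and 1.47% were called lower (146). PRG4 then had an SE of 0.59 and an adjusted p of 0.0260, both ABI3BP rows 0.0232, VCAM1 0.0308 and CLU 0.0365, whereas HTRA1 did not pass (0.114). All 6 within-pig differences were below 0 for PRG4 (-6.32 to -1.90), both ABI3BP rows (-3.44 to -1.26 and -2.76 to -1.12), VCAM1 (-4.68 to -1.25) and CLU (-1.92 to -0.62), and 5 of 6 for HTRA1 (-1.23 to 0.05). Of all genes, 8.12% were lower in each of the 6 within-pig differences, and 0.512% had BMPR1B+ libraries wholly below the BMPR1B- libraries, as PRG4 and both ABI3BP rows did. An exact two-sided permutation test that exchanged the BMPR1B labels within each pig, over all arrangements, gave p = 0.00926, the smallest this design allows, for PRG4, both ABI3BP rows and CLU, and p = 0.0278 for VCAM1 and HTRA1. These are unadjusted values from 12 such tests, and that of VCAM1, like its calls, is no support of its own.

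The calls of this comparison lay close to the threshold. In the fit without the pig, leaving out any 1 of the 12 libraries lost VCAM1 (-2.47 to -1.97), and leaving out any but the pig 2 libraries of ITGA4+BMPR1B- or ITGA4-BMPR1B+ cells lost ABI3BP row ENSSSCG00000011959 (-2.03 to -1.69 over all omissions). Without the ITGA4-BMPR1B+ library of pig 2, PRG4 passed (-4.29, adjusted p = 0.0412), as did row ENSSSCG00000021687 (-2.55, adjusted p = 0.0462). With the pig as a term, omission of any 1 of 9 libraries lost the calls of PRG4 (-4.10 to -3.05), the ABI3BP rows (-2.58 to -2.05 and -2.08 to -1.63) and CLU (-1.30 to -0.97, each range over all omissions). These 9 were all but the pig 6 library of ITGA4+BMPR1B+ cells and the pig 2 libraries of ITGA4+BMPR1B- and ITGA4-BMPR1B+ cells. VCAM1 lost its call without any library other than those of ITGA4+BMPR1B+ cells (-2.52 to -1.90 over all omissions). Without all 4 chondrocyte libraries of pig 2, PRG4 was at -4.26 and the ABI3BP rows at -2.75 and -2.14, and none of the 6 rows passed, with or without the pig as a term. Every one of these omissions left the direction as it was.

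**Figure D2:**
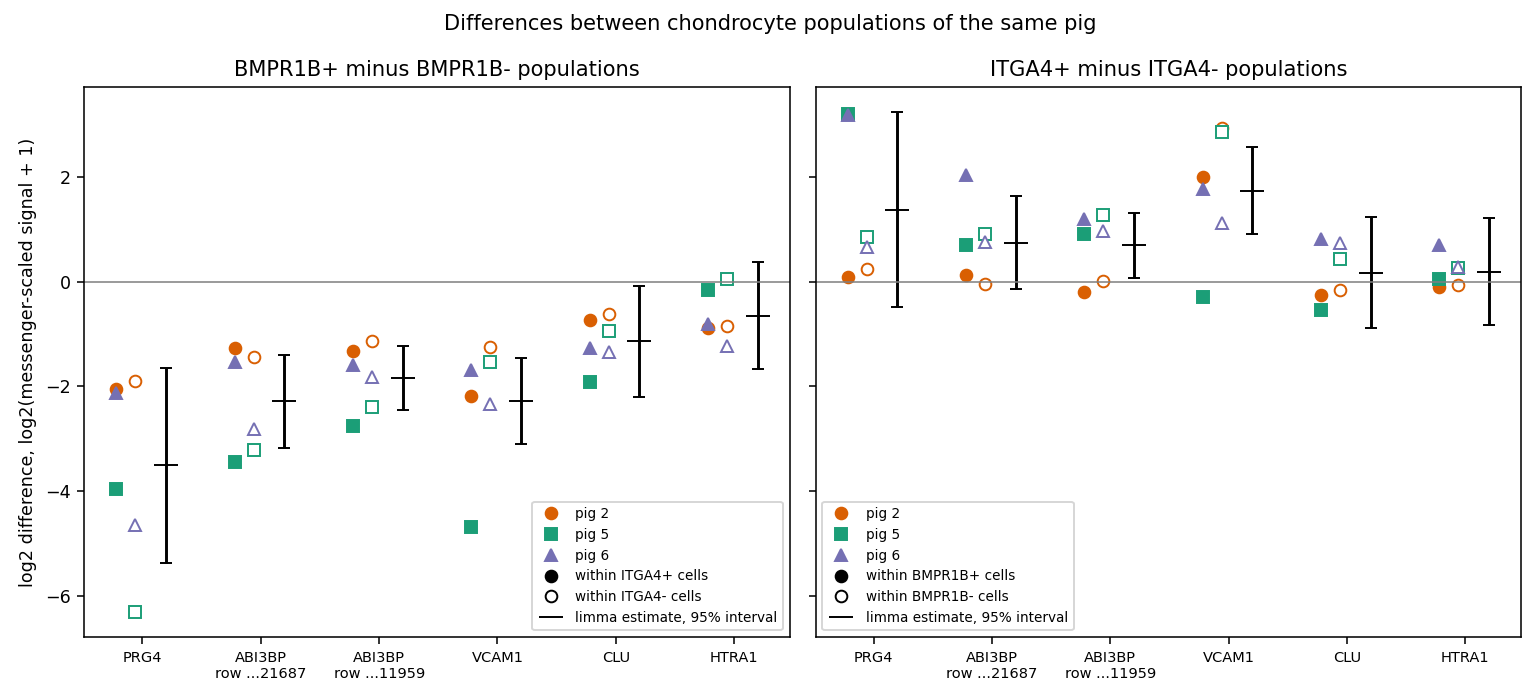
Log2 differences of messenger-scaled signal + 1 between chondrocyte populations of the same pig, BMPR1B+ minus BMPR1B- on the left and ITGA4+ minus ITGA4- on the right, for the 6 rows. Filled and open points are the differences within cells positive and negative for the other marker, and black bars are limma estimates without a pig term with 95% intervals. On the left each point lies below 0 except 1 of HTRA1, at 0.05, and on the right the points spread on both sides of 0 except those of PRG4.

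The second comparison set ITGA4+ chondrocytes against ITGA4- chondrocytes. None of the 6 rows passed in limma, with or without the pig as a term, and 1 of 9958 genes did (0.01%), with 565 genes at an unadjusted p under 0.05 without the pig term. At a pseudocount of 1 VCAM1 had the highest fitted difference, 1.74 (95% interval 0.91 to 2.57, adjusted p = 0.483, and 0.199 with the pig as a term), and was above 0 in 5 of 6 within-pig differences. Its size moved with the pseudocount, to 2.41 with 0.1 and to 1.01 with 5, where PRG4 had 1.33. The BMPR1B difference of VCAM1 moved likewise, to -3.45 and -1.21. On the deposited scale VCAM1 had 0.63 and PRG4 1.90 for ITGA4. PRG4 had 1.38 (-0.49 to 3.24) and was above 0 in 6 of 6, from 0.09 to 3.22, where the share of all genes was not counted. Its higher values, 3.22 in pig 5 and 3.19 in pig 6, were those between the BMPR1B+ populations. The ABI3BP rows had 0.75 (-0.14 to 1.64) and 0.70 (0.07 to 1.32), CLU 0.18 (-0.89 to 1.24) and HTRA1 0.19 (-0.83 to 1.21). Whether the BMPR1B difference itself depended on ITGA4 was tested as an interaction, in which 0 of 6 rows passed in limma and 1 of 9958 genes did, with 173 genes at an unadjusted p under 0.05. The interaction of PRG4 was 1.58 (-2.15 to 5.30) and that of VCAM1 -1.15 (-2.80 to 0.51), so a dependence of several fold in PRG4 could not be seen at this number of pigs.

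ITGA4+BMPR1B- and ITGA4-BMPR1B+ cells differed the most among the 6 pairs of chondrocyte populations. VCAM1 was higher in ITGA4+BMPR1B- cells by 4.02 (SE 0.53, adjusted p = 0.0382), 1 of 6 rows called where 0.0803% of genes were. Since VCAM1 passed the signal limit only in ITGA4+BMPR1B- and CD146+ libraries, its calls in this pair are no support of their own. PRG4 was higher by 4.88 (SE 1.19, adjusted p = 0.190) and the ABI3BP rows by 3.03 and 2.53 (0.104 and 0.0700). With the pig as a term, these 4 rows passed (adjusted p from 0.0240 to 0.0373), where 1.84% of genes did, and CLU (0.0756) and HTRA1 (0.155) did not. The VCAM1 call without the pig term was lost on omission of any 1 of these 6 libraries but the ITGA4+BMPR1B- library of pig 6 (3.71 to 4.38 over all omissions). That of PRG4 was gained without the ITGA4-BMPR1B+ library of pig 2 (6.46), and that of ABI3BP row ENSSSCG00000011959 without the ITGA4+BMPR1B- library of pig 2 (2.92). In the other 5 pairs none of the 6 rows passed in limma, with or without the pig term, where at most 4 of 9958 genes (0.0402%) were called and 320 to 808 had an unadjusted p under 0.05 without it.

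The third comparison set chondrocytes, as the mean of the 4 populations, against CD146+ synovial cells. Without the pig in the fit all 6 rows passed, but so did 44.2% of all genes (4402 of 9958). ABI3BP was higher in chondrocytes by 4.47 (SE 0.74, adjusted p = 0.000351) in row ENSSSCG00000021687 and by 2.29 (SE 0.33, adjusted p = 0.000102) in row ENSSSCG00000011959. PRG4 was higher by 2.94 (SE 0.94, adjusted p = 0.0223), CLU by 2.32 (SE 0.66, adjusted p = 0.0126) and HTRA1 by 1.96 (SE 0.49, adjusted p = 0.00561). VCAM1 was lower in chondrocytes, by a log2 difference of -3.29 (SE 0.44, adjusted p = 5.69e-05), beside the high endothelial sum of CD146+ cells given above, whose part in this difference was not tested. VCAM1 passed the signal limit only in ITGA4+BMPR1B- and CD146+ libraries, so its calls against CD146+ cells are no support of their own. ABI3BP row ENSSSCG00000011959 passed the limit of 5 in 11 libraries, all of chondrocytes. CD146+ cells of pigs 3, 4 and 5 had 1.93, 1.42 and 4.51 in that row. The calls of row ENSSSCG00000011959 against CD146+ cells are therefore no support of their own either. The 6 rows that passed include this row and VCAM1. The call of PRG4 was lost without the CD146+ library of pig 3 (2.31) or of pig 4 (2.73), and that of CLU without that of pig 4 (2.08) or pig 5 (1.60). Without all libraries of pig 2, which leaves the CD146+ cells as they are, each of the 6 rows passed. In messenger-scaled signal HTRA1 was the 1 row whose chondrocyte libraries lay wholly above CD146+ cells, as 14.8% of genes did.

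With the pig as a term the comparison rests on pig 5 alone. CD146+ cells then count as 1 library, since pigs 3 and 4 gave no chondrocytes, and the spread is that of the chondrocyte libraries, and CD146+ cells are assumed to vary like them. The p-values of this fit therefore hold no measure of the spread among CD146+ libraries. In it 3 of 6 rows passed where 34% of genes did. CLU (3.17, adjusted p = 0.000664) and HTRA1 (1.51, adjusted p = 0.0133) were higher in chondrocytes and VCAM1 (-4.37, adjusted p = 0.00325) was lower. PRG4 was then at 0.11 (95% interval -2.48 to 2.71, adjusted p = 0.950), and the ABI3BP rows at 1.58 (adjusted p = 0.121) and 1.49 (0.0719). In pig 5 itself PRG4 had 217 (ITGA4+) and 22.4 (ITGA4-) in BMPR1B+ chondrocytes and 3396 (ITGA4+) and 1863 (ITGA4-) in BMPR1B- chondrocytes, against 390 in CD146+ cells, the highest of the CD146+ libraries. The CD146+ library of pig 5 was also the highest of the 3 for both ABI3BP rows and for VCAM1, and the lowest for CLU.

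By population, the difference from CD146+ cells depended on which chondrocytes were compared. PRG4 passed in ITGA4+BMPR1B- cells, with 4.98 (SE 1.18, adjusted p = 0.00643), and in ITGA4-BMPR1B- cells, with 4.39 (adjusted p = 0.0123), and did not pass in ITGA4+BMPR1B+ (2.27, adjusted p = 0.158) or ITGA4-BMPR1B+ cells (0.10, adjusted p = 0.961). With the pig as a term PRG4 passed in none of the 4, with 2.16 and 1.57 in the BMPR1B- populations and -0.55 (ITGA4+) and -2.72 (ITGA4-) in the BMPR1B+ populations. VCAM1 passed as lower in both BMPR1B+ populations (-3.84 in ITGA4+ and -5.01 in ITGA4- cells) and in double-negative cells (-3.31), also with the pig as a term, and not in ITGA4+BMPR1B- cells (-0.99, 95% interval -2.20 to 0.21). Altogether 4 of 6 rows passed in double-positive cells, beside 35.9% of genes, and 5 in ITGA4+BMPR1B- cells, beside 31.7%. In ITGA4-BMPR1B+ cells 2 rows passed, beside 36.5% of genes, and in double-negative cells all 6, beside 33.1%. The calls of VCAM1 and of ABI3BP row ENSSSCG00000011959 in such counts are no support of their own, for the reason given above. In the fit with the pig as a term, with 1 CD146+ library behind each value, 3 rows passed in double-positive cells (32% of genes), 4 in ITGA4+BMPR1B- cells (28.9%), 2 in ITGA4-BMPR1B+ cells (33%) and 5 in double-negative cells (29.3%). CLU then passed in both BMPR1B+ populations (2.61 in ITGA4+ cells, adjusted p = 0.00325, and 2.60 in ITGA4- cells, adjusted p = 0.00308). The ABI3BP rows no longer passed in double-positive cells, with 0.92 (adjusted p = 0.401) in row ENSSSCG00000021687 and 0.89 (adjusted p = 0.304) in row ENSSSCG00000011959, nor did row ENSSSCG00000021687 in ITGA4-BMPR1B+ cells (-0.039, adjusted p = 0.976). Omission of 1 library moved calls of the fit without the pig. CLU in ITGA4+BMPR1B- cells (3.06) was lost without their pig 6 library (2.44) or the CD146+ library of pig 4 (2.82) or pig 5 (2.34), and in double-negative cells (2.72) without their pig 6 library (2.30) or the CD146+ library of pig 4 (2.47) or pig 5 (2.00). HTRA1 was lost in ITGA4+BMPR1B- cells (2.37) without their pig 6 library (1.78), and in double-negative cells (2.21) without their pig 6 library (1.68) or the CD146+ library of pig 4 (1.91). CLU was gained in both BMPR1B+ populations without the CD146+ library of pig 3 (2.73 in ITGA4+ and 2.72 in ITGA4- cells), and ABI3BP row ENSSSCG00000011959 in ITGA4-BMPR1B+ cells without their pig 5 library (1.35) or the CD146+ library of pig 5 (1.40). PRG4 in ITGA4-BMPR1B- cells was lost without the CD146+ library of pig 3 (3.76). The call of ABI3BP row ENSSSCG00000021687 in ITGA4-BMPR1B+ cells (2.84) was lost in 4 of 6 omissions (1.63 to 4.03 over all 6: without pig 2 or 6 of the chondrocytes, or pig 3 or 4 of the CD146+ cells). HTRA1 in ITGA4+BMPR1B+ cells (1.75) was lost in 5 of 6, all but that without the chondrocytes of pig 2 (1.26 to 2.22 over all 6).

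**Figure D3:**
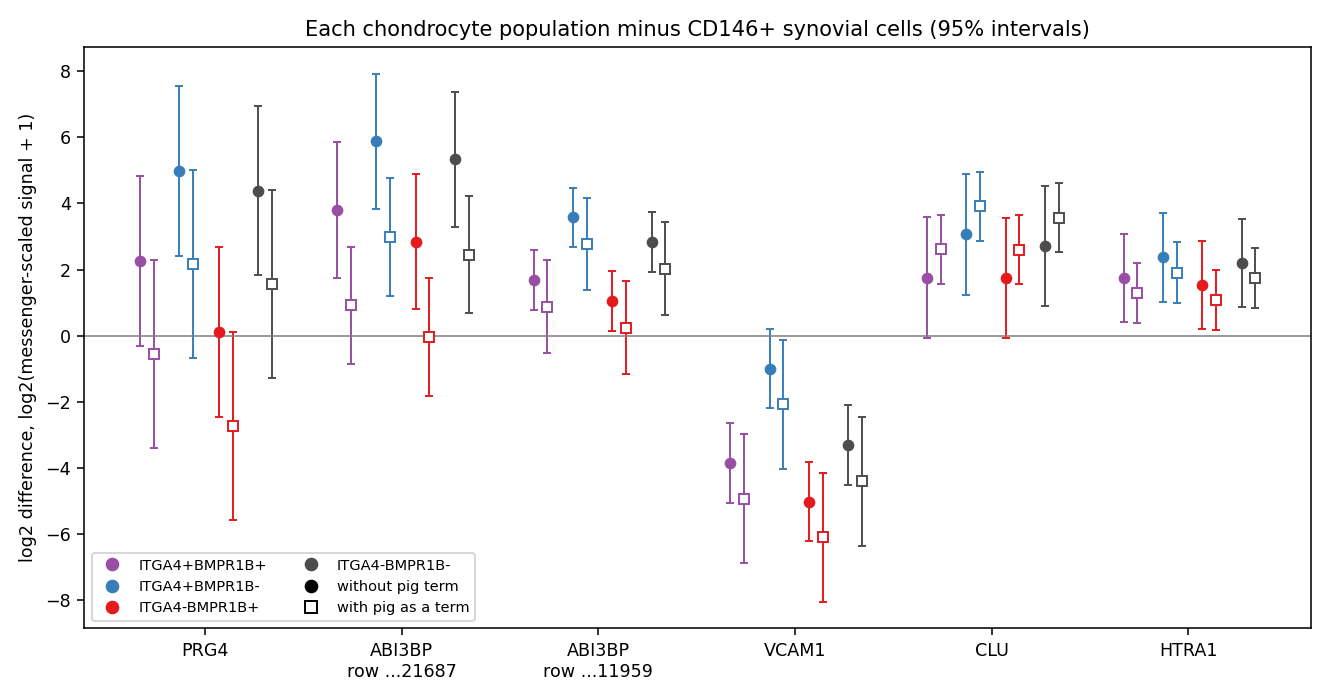
Log2 difference of messenger-scaled signal + 1 of each chondrocyte population minus CD146+ synovial cells, with 95% intervals, for the 6 rows. Filled circles are fits without the pig and open squares fits with the pig as a term. With the pig term PRG4 and ABI3BP row ENSSSCG00000021687 move down towards 0 or below it, CLU moves up, and VCAM1 stays below 0.

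Other genes of the same processes were taken from lists that partly hold the members themselves and genes the study named, so they are a description. In BMPR1B+ minus BMPR1B- chondrocytes, none of the 8 tested rows on lubrication passed without the pig term (median difference 0.14, beside -0.01 over all genes). With it CEMIP, which takes part in hyaluronan breakdown, fell beside PRG4 (-2.25, SE 0.32, adjusted p = 0.0202), with means of 23.7 (ITGA4+) and 10.9 (ITGA4-) in BMPR1B+ cells, against 106 (ITGA4+) and 58.9 (ITGA4-) in BMPR1B- cells. Of 13 regulators of lubricin tested (median -0.04), none passed without the pig term, and with it TGFB2, a transforming growth factor, rose (0.80, SE 0.14, adjusted p = 0.0288). Of 3 cell-surface receptors that lubricin binds in other species (median -0.25), none passed without and 1 with it, TLR4, an innate immune receptor, which fell by 1.83 on the log2 scale (SE 0.21, adjusted p = 0.0191). Among 5 proteases able to cleave lubricin, 0 passed in either limma fit (median -0.88), and the cathepsin CTSB was at -0.78 (adjusted p = 0.170, and 0.0655 with the pig term).

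Around VCAM1, none of 9 tested receptors and adhesion molecules passed in either fit (median -0.03), ITGB1, the β1 partner of ITGA4, being at -0.12. Of 10 NF-kB subunits and feedback targets (median -0.02), SOD2, a mitochondrial superoxide dismutase, fell with the pig as a term (-1.08, SE 0.20, adjusted p = 0.0330), and none passed without it. Around CLU, 2 of 5 chaperones and complement inhibitors fell with the pig as a term (median -1.13) and none without it. They were CLU itself and SERPING1, the C1 inhibitor of the complement cascade (-0.98, SE 0.18, adjusted p = 0.0331). None of 3 complement components (median -0.33) and 2 clusterin receptors (median -0.11) passed in either fit. Of the 2 HtrA proteases tested (median -0.20), neither HTRA1 nor its paralog HTRA3 (0.24) passed in either fit. Of 11 HTRA1 substrates (median 0.31), none passed without the pig term, and with it 2 rose and 2 fell. Those that rose were MATN3, a cartilage matrilin (1.36, adjusted p = 0.0191), and FN1, fibronectin (1.08, adjusted p = 0.0208), and those that fell were CLU and BMP4, a bone morphogenetic protein (-0.75, adjusted p = 0.0431).

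Of 13 superficial-zone rows tested, 6 are the member rows. In the whole list 2 fell in BMPR1B+ cells without the pig term, both of them members, and 6 with it (median -0.65). Of the 7 other rows none fell without the pig term and 1 with it, SFRP1, a secreted Wnt inhibitor (-0.93, SE 0.19, adjusted p = 0.0443). GDF5, a growth factor of the joint, was at 1.12 and did not pass (0.521 and 0.0655). Of 16 rows of middle and deep zones, 2 rose without the pig term and 8 with it (median 0.86). FRZB, a Wnt antagonist, rose by 1.96 (SE 0.31, adjusted p = 0.0470 without the pig term), COL11A1, a fibrillar collagen chain, by 1.14 (SE 0.18, adjusted p = 0.0470), and with the pig as a term also LECT1, which encodes chondromodulin, by 1.86 (adjusted p = 0.0232). COL2A1, the main cartilage collagen, rose by 1.28 (SE 0.25, adjusted p = 0.0410) with the pig as a term. Among cell-type markers, 1 of 9 chondrocyte rows rose without the pig term and 6 with it (median 0.99), and none of 7 endothelial (median -1.11), 8 pericyte (0.07) and 1 macrophage row (-1.66) passed in either fit. Of 6 synovial fibroblast rows (median -0.20), PDGFRA, a platelet-derived growth factor receptor, fell with the pig as a term (-1.05, adjusted p = 0.0484). Between ITGA4+ and ITGA4- chondrocytes no row of any list passed without the pig term.

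Against CD146+ cells, where 22.4% of genes rose and 21.8% fell in chondrocytes, the lists moved as follows without the pig term. Of the lubrication rows 4 rose and 2 fell, ENPP1, which makes pyrophosphate, rising by 3.35 and HYAL2, a hyaluronidase, at -2.74. Of the regulators 6 rose and 4 fell, TGFB2 rising by 4.28. Of the receptors TLR2 (2.34) and CD44 (2.09), the hyaluronan receptor, rose and TLR4 (-2.96) fell. Of the proteases 1 fell, CTSB (-3.22). Of the VCAM1 list 2 rose and 6 fell, those that fell including the endothelial PECAM1 (-6.93) and ICAM2 (-4.85). Of the NF-kB list 4 fell, NFKBIA, an inhibitor of NF-kB (-2.33), and CXCL8, a chemokine (-5.66), among them. Of chaperones and complement inhibitors CLU and CD59 (3.03), which blocks the membrane attack complex, rose, of complement components CFD (-4.54) and CFB (-1.62) fell, and of clusterin receptors LRP8 (2.15) rose and VLDLR (-5.25) fell. HTRA3 (3.41) rose with HTRA1, and of the HTRA1 substrates 8 rose and 1 fell. Of the superficial-zone rows 10 rose and 2 fell, and each of the 16 middle and deep zone rows and 9 chondrocyte rows rose. Each of the 7 endothelial rows fell, 1 pericyte row rose and 3 fell, the macrophage row did not pass and 5 of 6 synovial fibroblast rows rose. Under the pig term, which leaves 1 CD146+ library, the counts differed in 8 lists. Of the lubrication rows 2 rose and 2 fell, of the regulators 6 rose and 3 fell, of the receptors 1 rose and 1 fell, and of the proteases 3 fell. Of chaperones and complement inhibitors 2 rose and 1 fell, none of the complement components passed, of the HTRA1 substrates 8 rose and 2 fell, and of the superficial-zone rows 6 rose and 3 fell.

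The genes closest to PRG4 were sought by Pearson correlation over the 12 chondrocyte libraries after the mean of each pig was subtracted, among the 9957 other genes tested. These libraries come from 3 pigs and share populations and scaling, so r is a description. The closest were CEP76, a centrosomal protein (r = 0.99), SEMA3A, a secreted guidance factor (0.98), WIF1, a secreted Wnt inhibitor (0.98), ABI3BP row ENSSSCG00000021687 (0.97) and the unnamed row ENSSSCG00000000325 (0.97). The 3 most opposite were LAMB3, a laminin chain (-0.97), the unnamed row ENSSSCG00000028410 (-0.95) and LTBP2, which belongs to a family of proteins of elastic fibres (-0.95). When pig means were kept, CEP76 ranked 26th and LAMB3 stood at r = -0.28, and 3 of the 5 closest, SEMA3A, WIF1 and ENSSSCG00000000325, were still among the 5 closest. WIF1 averaged 13.1 (ITGA4+) and 4.83 (ITGA4-) in BMPR1B+ cells, against 38.3 (ITGA4+) and 27.1 (ITGA4-) in BMPR1B- cells. Averages of the chondrocyte populations lay near the signal limit of 5 for CEP76 (4.07 to 5.86), LAMB3 (3.70 to 9.26) and ENSSSCG00000028410 (1.67 to 5.75). Among the members, r with PRG4 was 0.96 for ABI3BP row ENSSSCG00000011959, 0.85 for CLU, 0.78 for VCAM1 and 0.65 for HTRA1. The 2 ABI3BP rows followed each other with r = 0.98, and CLU and HTRA1 were tied more closely with pig means kept (0.85) than without them (0.74).

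PRG4 ran opposite to COL2A1 within cartilage (r = -0.91 after pig means were subtracted). COL2A1 had 15093, 36092 and 39609 in ITGA4+BMPR1B+ cells of pigs 2, 5 and 6 and 12343, 9103 and 11874 in ITGA4+BMPR1B- cells. It had 21710, 69815 and 61269 in ITGA4-BMPR1B+ cells and 13427, 24567 and 22101 in ITGA4-BMPR1B- cells. PRG4 signal amounted to 8.38%, 0.600% and 1.91% of COL2A1 signal in ITGA4+BMPR1B+ cells and 42.6%, 37.3% and 27.7% in ITGA4+BMPR1B- cells. It came to 5.46%, 0.0321% and 0.134% in ITGA4-BMPR1B+ cells, against 33.0%, 7.58% and 9.43% in ITGA4-BMPR1B- cells. Such a ratio does not depend on how a library was scaled, but it depends on the lengths and mapping of the 2 genes, so that only its change between libraries can be read. Within each pig the ratio was lower in both BMPR1B+ populations than in both BMPR1B- populations. The log2 ratio differed by -4.80 between BMPR1B+ and BMPR1B- cells. In each pig PRG4 by itself was lower, and COL2A1 by itself higher, in both BMPR1B+ populations. The ratio therefore had to separate and is no support beyond the values of the 2 genes.

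**Figure D4:**
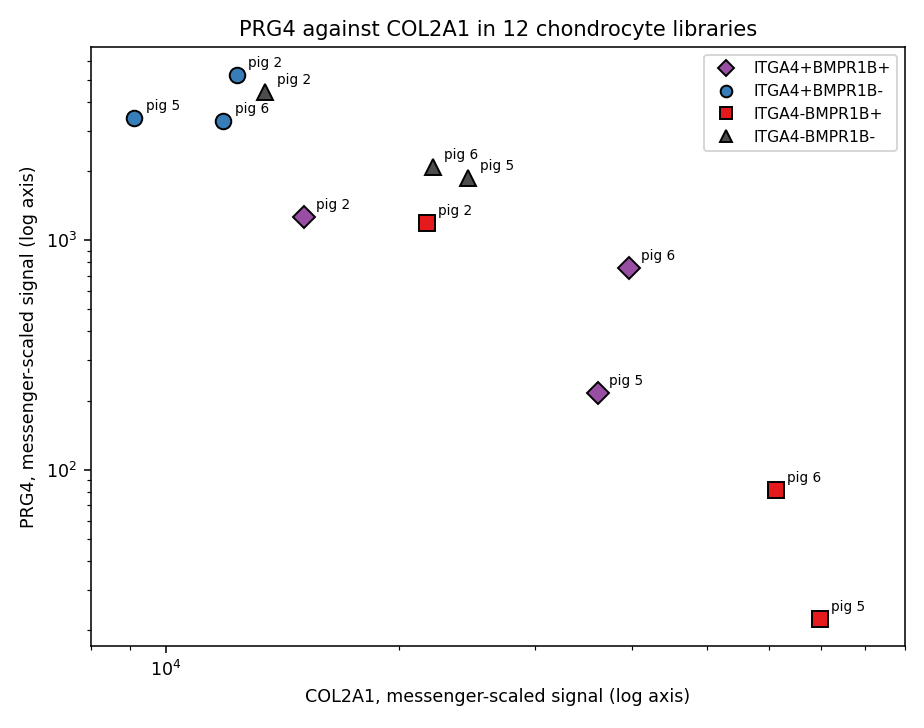
PRG4 against COL2A1 in the 12 chondrocyte libraries, both as messenger-scaled signal on log axes, with the sorted population as shape and colour and the pig beside each point. The ITGA4-BMPR1B+ libraries of pigs 5 and 6 lie lowest in PRG4 (22.4 and 81.9) and highest in COL2A1, and the ITGA4+BMPR1B- libraries lie at the opposite corner.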

How the data were processed

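Total RNA of cells sorted from knee cartilage and synovium of adult pigs was extracted with a Qiagen Micro kit and made into libraries with the NuGen Ovation SoLo kit. The authors used STAR for alignment against the pig reference of Ensembl, then estimated signal by expectation maximisation in Partek. The signal they deposited has equal totals in all libraries and a lowest value of 0.0001, and neither tool versions nor a normalization are stated in the sources used. Reads and the read totals of the study were not used, so the depth behind a value is unknown here.

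For the messenger scale, 1114 structural and 37 mitochondrial RNA rows were left out, and size factors were median ratios to the geometric mean library over 11303 rows. A gene entered the test with a signal above 5 in 3 or more libraries (9958 genes, all 6 member rows among them), made with limma 3.58.1 (R 4.3.3, trended prior) on log2(signal + 1), with p-values adjusted by Benjamini and Hochberg and a threshold of 0.05. Fits with CD146+ cells used 15 libraries and those among chondrocytes 12. The study names EBSeq for pairwise tests and, for pig genes, a false discovery rate under 5%. The deposited signal is not counts, so limma was used. The pig number names the animal, so chondrocyte libraries are paired. With population means removed, libraries of the same pig correlated at 0.13 to 0.41 (18 pairs) and 12 of 12 libraries correlated best with their own pig, and the fit with the pig as a term is given beside the fit without it. Members, gene lists and tests were chosen with earlier results of these data known. Named genes were the members, the sort markers, COL2A1, the 5 genes closest and 3 most opposite to PRG4, and up to 4 called genes of each list by smallest p. HTRA3, GDF5, CTSB and ITGB1 between chondrocytes were named after their values were seen, as neighbours of the members. Symbols came from the table for 13674 rows and from a reference list for 2384.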

Additional observations from a re-analysis of the deposited data

How the results depend on the processing

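Alternatives changed the scaling, pseudocount, filter, prior and pairing or left out libraries. The fits without pig 2 and those with libraries left out under the pig term or in pairs of populations were chosen after seeing the data. The directions of the member rows in the BMPR1B contrast and in chondrocytes minus CD146+ cells were kept in each alternative that tested them, which with genes above 50 was 4 of 6 rows. Their calls were not, and the cause was not tested.

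For BMPR1B, 2 member rows and 21 of 9958 genes were called. Rows and genes called were 0 and 0 on the deposited scale and 0 and 2 after division by total messenger signal or by the upper quartile. They were 0 and 2 with a pseudocount of 5, 1 and 18 with a pseudocount of 0.1, and 0 and 6 of 24171 without a filter. With genes above 50, 1 of the 4 rows tested and 22 of 2557 genes were called. That row was ABI3BP row ENSSSCG00000021687 (limma adjusted p = 0.0249), and both rows called otherwise were not tested there. Rows and genes called were 0 and 1 without the trended prior, and 0 and 5 without pig 2. The paired fit (replicate block by pig) called 5 rows and 267 genes, 0 and 0 on the deposited scale, and 0 and 22 without pig 2. With each library left out, 0 to 3 rows and 1 to 40 genes were called, and in the paired fit 0 to 5 and 0 to 379.

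For ITGA4, 1 gene was called, against 10 on the deposited scale, 2 with a pseudocount of 0.1, 3 without a filter, 0 with genes above 50, 6 without pig 2 and 1 to 4 with each library left out (0 to 4 in the paired fit, and 0 there without pig 2). The paired fit on the deposited scale called 5 member rows, but also 3507 of 7049 genes, with a median over all genes of 0.32 in ITGA4+ cells, which that scale does not remove. For the interaction, 1 gene was called, against 4 on the deposited scale, 0 with a pseudocount of 0.1, 3 without a filter, 0 with genes above 50, 0 in the paired fit on the deposited scale, 3 without pig 2 and 1 to 2 with each library left out. Against CD146+ cells, 6 rows and 4402 of 9958 genes were called, against 3 and 477 of 7049 on the deposited scale, where the median over all genes was 0.59. Without a filter 5 rows (PRG4 lost, limma adjusted p = 0.0558) and 5556 of 24171 genes were called. With genes above 50 the 4 rows tested and 1416 of 2557 genes were called.

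Some signs of differences between populations turned. The interaction turned to 0.049 for ABI3BP row ENSSSCG00000011959 after division by the total and to -0.12 for HTRA1 on the deposited scale, paired or not. VCAM1 in ITGA4+BMPR1B- minus CD146+ cells turned to 0.25 on the deposited scale, and HTRA1 in ITGA4+BMPR1B+ minus ITGA4-BMPR1B- cells to 0.23, paired or not. Against CD146+ cells in the paired fit, PRG4 turned to -0.55 in ITGA4+BMPR1B+ cells and to -2.72 in ITGA4-BMPR1B+ cells (-0.92 on the deposited scale, and -1.48 unpaired without pig 2), and ABI3BP row ENSSSCG00000021687 to -0.039 in ITGA4-BMPR1B+ cells. With each library left out, ranges crossed 0 for the ITGA4 difference of CLU (-0.14 to 0.43) and HTRA1 (-0.11 to 0.45), for the interaction of ABI3BP rows ENSSSCG00000011959 (-0.50 to 0.19) and ENSSSCG00000021687 (-0.032 to 0.997), CLU (-0.98 to 0.29) and HTRA1 (-0.47 to 0.65), and for PRG4 in ITGA4-BMPR1B+ minus CD146+ cells (-1.48 to 1.35). They also did in ITGA4+BMPR1B- minus double-negative cells for CLU (-0.28 to 0.77) and HTRA1 (-0.43 to 0.69), in double-positive minus ITGA4-BMPR1B+ cells for CLU (-0.63 to 0.51) and HTRA1 (-0.27 to 0.68), and in double-positive minus double-negative cells for HTRA1 (-0.95 to 0.072) and VCAM1 (-0.92 to 0.073), and in the paired interaction of HTRA1 and both ABI3BP rows. None of these was called.

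With 3 pigs, and 1 library per population and pig, low values such as VCAM1 outside ITGA4+BMPR1B- and CD146+ cells carry an unknown counting error. Cell type and animal overlap in 1 pig only.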
